A study of Mus musculus with 18 samples.

Results

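The genes described here encode the subunits of the 3 nuclear RNA polymerases and of Mediator in mouse embryonic stem cells. A gene was included when the probe annotation gave it as the only symbol of a probe and the symbol began with Polr1, Polr2 or Polr3, or was Med followed by a number. This rule took 63 probes for 57 of the 19935 genes measured, with 5 genes named for RNA polymerase I (Pol I), 13 for RNA polymerase II (Pol II), 9 for RNA polymerase III (Pol III) and 30 for Mediator. No measured value entered the choice, except that 6 genes had several probes, and the one that was brightest on average was used.

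Total RNA was hybridised to 18 Affymetrix whole-transcript arrays. R1E is a mouse embryonic stem cell line, and its 12 arrays form 3 groups of n = 4: mock treatment, adriamycin (also called doxorubicin) at 0.5 µM, and ultraviolet irradiation (UV) at 25 J/m2, both treatments with RNA taken at 8 hours. The other 6 arrays came from embryonic stem cells of genotype p53-/- on a 129X1 x 129S1 background, n = 3 left untreated and n = 3 under the same dose and time of adriamycin. All 5 groups grew in medium with serum and leukemia inhibitory factor. The labels give no p53 genotype for R1E, no clone for the p53-/- line, and no statement that replicate arrays stem from different cultures. Adjusted p-values therefore cover array-to-array spread, part of which may be technical. The series' design text names p53 dependence of the adriamycin response as its question.

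Pol I transcribes the ribosomal RNA genes, Pol II the messenger RNA genes, and Pol III the transfer RNA genes and other short RNAs. Each enzyme has a pair of large subunits that form the catalytic centre, smaller subunits of its own, and a common set of small subunits that all 3 enzymes share. Mediator is a large complex that links transcription factors at enhancers to Pol II at promoters. It is described as head, middle and tail modules held on the scaffold subunit Med14, with a separable kinase module that contains Med12 and Med13 (or their paralogues Med12l and Med13l), cyclin C and the kinase Cdk8 or Cdk19. UV lesions in the transcribed strand stall elongating Pol II, and adriamycin traps topoisomerase II on DNA.

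Median log2 intensities over the named genes lay between 5.58 and 6.05 on the 18 arrays, whose number sets the precision of all changes below. The members were brighter than most genes, with a median level of 8.60 against 5.91 over all genes in mock-treated R1E cells, and 2 of the 57 lay below the median gene there. Of 9 embryonic stem cell markers, 9 stood above the upper quartile of genes in every group. In R1E cells 8 of the 9 were called lower after adriamycin (median change -0.55) and 7 after UV (median -0.33), and in p53-/- cells 0 were called (median 0.03). Their summed log2 level was 101 to 102 on mock, 95.4 to 96.1 on adriamycin and 98.9 to 99.3 on UV arrays of R1E. Of 8 fibroblast markers, 0 did so in the R1E groups, 4 in untreated and 3 in adriamycin-treated p53-/- cells. The summed log2 level of these 8 was 39.3 to 41.0 on the R1E arrays and 55.5 to 58.8 on the p53-/- arrays. The sets were normalised separately, so these sums cannot be set against each other, and the markers' part in the results below was not tested. In bulk RNA, fewer cells of a type and less RNA per cell cannot be told apart.

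The p53-/- arrays were less alike than the R1E arrays, and untreated p53-/- replicate 3 stood apart. Its mean root-mean-square distance to the other untreated p53-/- arrays was 0.365 log2 units over all genes, against 0.290 and 0.274 for those arrays and 0.131 to 0.159 within the R1E groups. That array was the lowest of its group for 45 of the 57 members. The p53-/- counts, medians and named changes of members are therefore given with and without it. The p53-/- label was not checked on its own gene here.

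Adriamycin in R1E cells lowered more polymerase and Mediator messages than it raised. Of the 57 members, 9 rose and 23 fell (limma, Benjamini-Hochberg adjusted p below 0.05 over all genes). Among all 19935 genes 22.1% rose and 25.6% fell. The median member changed by -0.13 on the log2 scale, against -0.02 over all genes. A separate fit took the 9967 genes above the median level, 55 of them members, and adjusted p over these only. There 16.4% of members rose and 50.9% fell, where 30.2% and 43.1% of all such genes did. Shares of genes above the median level, also called brighter genes, come from such separate fits throughout. Member counts by complex, module or span class and counts by list use the fit over all genes. Centring each array on its median shifted every adriamycin change by -0.125 and gave 6 members higher and 37 lower, so that the share of calls that were rises was 14% in place of 28.1%.

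**Figure D1:**
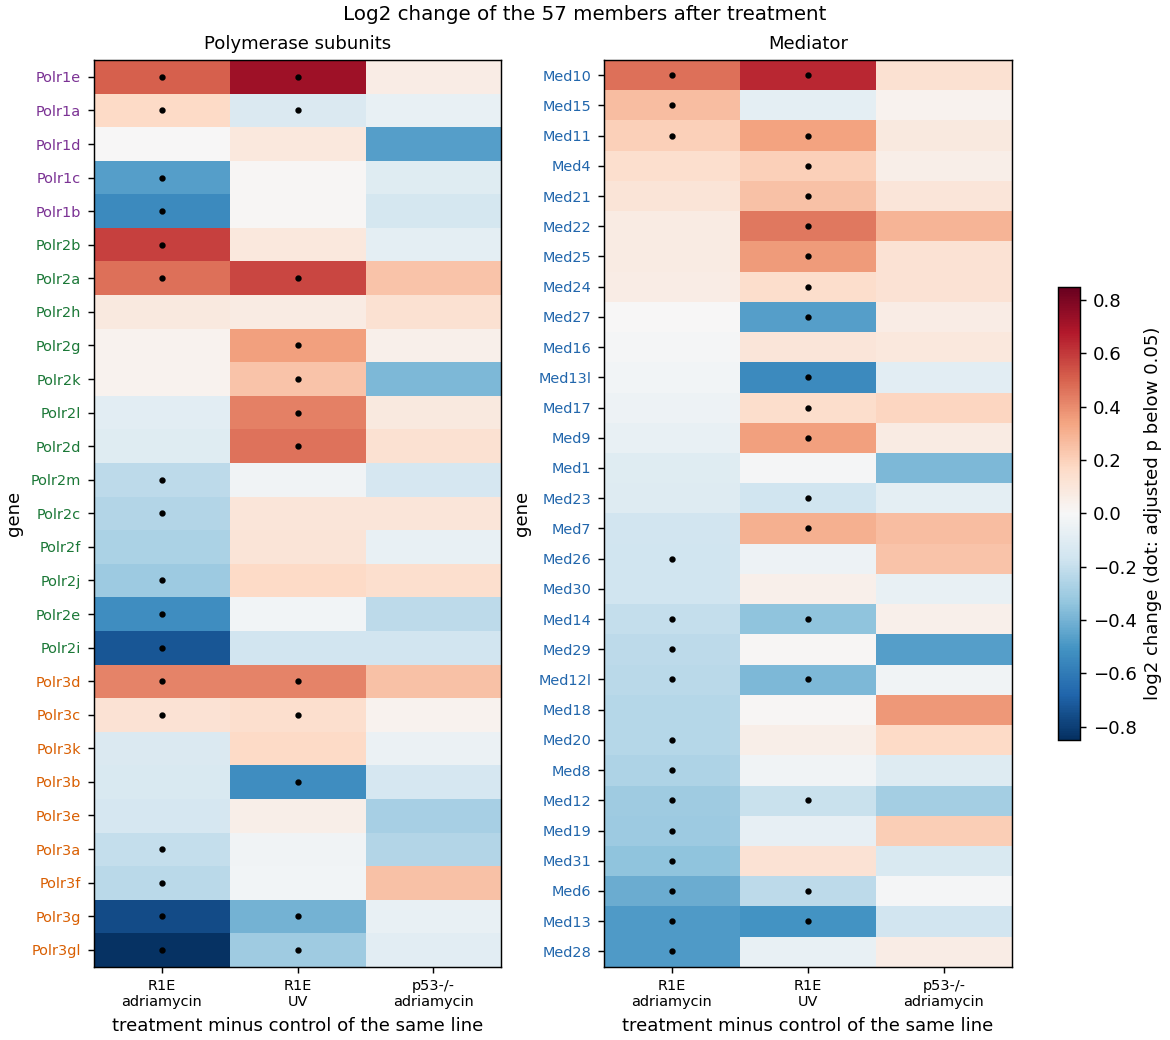
Log2 change of each of the 57 members after adriamycin in R1E, UV in R1E and adriamycin in p53-/- cells, each against the control of the same line, with red for higher, blue for lower and a dot for an adjusted p below 0.05. Gene names are coloured by complex (Pol I purple, Pol II green, Pol III orange, Mediator blue); dots mark 32 members for adriamycin in R1E, 30 for UV and 0 in p53-/- cells.

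In Pol II, both large subunits rose after adriamycin while most smaller ones that moved fell. Polr2b, which encodes the second largest subunit, read 10.92, 10.96, 10.97 and 10.87 in mock arrays and 11.51, 11.51, 11.51 and 11.50 after adriamycin, without overlap. It rose 1.50-fold (log2 change 0.58 ± 0.05 SE, limma adjusted p = 2.97e-08). Polr2a, which encodes the largest subunit with its repeated C-terminal domain, read 10.38, 10.37, 10.40 and 10.37 in mock arrays and 10.84, 10.87, 10.85 and 10.86 after adriamycin. It rose 1.39-fold (0.47 ± 0.04, adjusted p = 1.31e-07), and the groups did not overlap. Here and below, many genes are named for the size of their change, so a lack of overlap adds no support of its own. The share of all genes that separate so was not computed.

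The largest fall among Pol II subunits was that of Polr2i, a small subunit at the enzyme's lobe that acts in transcript fidelity. Mock arrays read 8.42, 8.34, 8.17 and 8.32, and adriamycin arrays 7.55, 7.40, 7.68 and 7.71. Polr2i fell 1.65-fold (log2 change -0.73 ± 0.07 SE, adjusted p = 2.86e-07), and every adriamycin array lay below every mock array. Polr2e, 1 of the 5 members shared by all 3 polymerases, went from 10.30 to 10.47 in mock arrays to 9.81 to 9.89 after adriamycin, a change of -0.53 ± 0.07 (adjusted p = 2.90e-06). None of the other shared subunits, Polr2f, Polr2h, Polr2k and Polr2l, was called, with changes from -0.27 to 0.08. Polr2j, a core assembly subunit, fell by 0.31, and Polr2m, a Pol II-associated protein that hinders initiation factor binding, by 0.22. The Polr2m call was lost with quantile normalization (adjusted p = 0.0602). Polr2c, the assembly partner of Polr2j, fell by 0.25 on the probe used, but its other probe gave 0.05 and the call was lost with the mean of both (adjusted p = 0.165). In all, 2 of 13 Pol II members rose and 5 fell (15.4% and 38.5%). Of all genes 22.1% rose and 25.6% fell, and of genes above the median level 30.2% and 43.1%.

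Pol I members moved both ways. Polr1b, the second largest subunit, read 10.13, 10.08, 10.11 and 10.07 in mock arrays and 9.54, 9.42, 9.65 and 9.61 after adriamycin, and the groups stood well apart. Its change was -0.54 ± 0.06 (adjusted p = 3.48e-07). Polr1a, the largest subunit, moved by 0.17 ± 0.05 (adjusted p = 0.00409), but the change was 0.05 after centring, with an adjusted p of 0.349. Polr1e, a subunit of the heterodimer at the enzyme's periphery, rose 1.42-fold, from 8.60, 8.49, 8.53 and 8.60 to 9.02, 9.06, 9.08 and 9.09 (0.51 ± 0.05, adjusted p = 2.88e-07).

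Polr1c and Polr1d encode the assembly pair shared by Pol I and Pol III. Polr1c went from 9.70 to 9.83 in mock arrays to 9.13 to 9.42 after adriamycin, a change of -0.47 ± 0.06 (adjusted p = 1.23e-05). Polr1d gave 0.00 (95% interval -0.13 to 0.14). The naming rule misses 3 Pol I subunits that the annotation lists under older symbols, and these were added after the data had been seen. Twistnb changed by -0.80 ± 0.06 (adjusted p = 1.07e-08), Cd3eap, the partner of Polr1e, by -0.45 ± 0.06 (2.88e-06) and Znrd1 by -0.68 ± 0.09 (6.65e-06). The Pol III subunit Crcp, added in the same way, gave -0.09 ± 0.09 (0.419).

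The Pol III members held the largest falls of all 57. Polr3gl and Polr3g encode alternative forms of 1 subunit of the trimer that opens promoters, and Polr3g is known as the form abundant in pluripotent cells. Polr3gl read 7.84, 7.87, 7.78 and 7.69 in mock arrays and 7.01, 6.95, 6.87 and 6.98 after adriamycin, a 1.79-fold fall (log2 change -0.84 ± 0.06 SE, adjusted p = 6.90e-09). Polr3g read 9.01, 9.12, 8.99 and 9.07 in mock arrays and 8.31, 8.21, 8.42 and 8.21 after adriamycin, a 1.69-fold fall (-0.76 ± 0.06, adjusted p = 1.85e-08). Both forms fell without overlap between the groups, which adds no support of its own for genes picked as the largest falls. The embryonic stem cell markers moved the same way in these arrays (8 of 9 called lower), and their part in the result was not tested.

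Of the catalytic pair of Pol III, Polr3a changed by -0.20 ± 0.06 (adjusted p = 0.00614) and Polr3b by -0.13 ± 0.06 (adjusted p = 0.0878). Polr3f, another subunit of the promoter-opening trimer, fell by 0.23. Polr3d went the other way. This subunit of the initiation and termination dimer read 7.78, 7.74, 7.79 and 7.82 in mock arrays and 8.24, 8.12, 8.26 and 8.20 after adriamycin, a rise of 0.42 ± 0.05 (adjusted p = 2.29e-06). Its partner Polr3e was not called (-0.14, adjusted p = 0.0503), but it was called lower in the separate fit to the brighter genes (adjusted p = 0.0277). Polr3c, at 0.12, was called but lost its call in 6 of 12 fits that left out 1 array, with the replicate block (adjusted p = 0.0676) and after centring, where the change was 0.00 (adjusted p = 0.944). The counts for Pol III were 2 higher and 4 lower of 9 (22.2% and 44.4%). Of all genes 22.1% rose and 25.6% fell, and of genes above the median level 30.2% and 43.1%.

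In Mediator 3 of 30 members rose after adriamycin and 12 fell (10% and 40%), with a median change of -0.14. Of all genes 22.1% rose and 25.6% fell, and of genes above the median level 30.2% and 43.1%. In the separate fit to the brighter genes Med1, Med7, Med18, Med23 and Med30 were called lower too (limma adjusted p from 0.029 to 0.049). Mediator's 40% comes from the fit over all genes, so it cannot be set directly against the 43.1%. The rise of Med10, a middle-module subunit, was the largest: mock arrays read 9.27, 9.18, 9.32 and 9.18 and adriamycin arrays 9.77, 9.66, 9.72 and 9.68 (0.47 ± 0.05, adjusted p = 5.51e-07). Med15, the tail subunit contacted by several activators, rose by 0.26 ± 0.05 (adjusted p = 0.0003). Med11 of the head gave 0.20 and lost its call after centring (adjusted p = 0.370). Its call was also lost without mock replicate 2 or 3 or without adriamycin replicate 2 or 4 (adjusted p from 0.068 to 0.122).

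The deepest Mediator falls were in Med28 and Med13, each at -0.48 ± 0.06 (adjusted p = 3.49e-06 and 2.87e-06). Med28, assigned here to the tail, went from 7.69, 7.70, 7.55 and 7.79 to 7.20, 7.24, 7.23 and 7.12. Med13, which tethers the kinase module to core Mediator, went from 9.59, 9.50, 9.60 and 9.39 to 9.06, 8.98, 8.99 and 9.11. Neither gene's groups overlapped. Med12, the activator of the module's kinase, changed by -0.30 ± 0.05 and its paralogue Med12l by -0.23 ± 0.07 (adjusted p = 0.000141 and 0.0146), whereas Med13l gave -0.02 (95% interval -0.13 to 0.10). The scaffold Med14 changed by -0.20 ± 0.06 (adjusted p = 0.00918), and Med1, the subunit bound by nuclear receptors, by -0.10 ± 0.04 (adjusted p = 0.0666). The other members called lower were Med6, Med8 and Med20 of the head, Med19, Med26 and Med31 of the middle and Med29 of the tail, between -0.42 and -0.17. Of these, Med20, Med26, Med29 and Med31 lost their call in several fits with 1 array left out (adjusted p up to 0.126, 0.072, 0.152 and 0.0944). Med20 also lost it with the replicate block (adjusted p = 0.0588). The adriamycin arrays were unlike for Med20 (7.05, 7.03, 7.37 and 7.40, mock 7.36 to 7.53) and Med31 (7.27, 7.13, 7.55 and 7.63, mock 7.59 to 7.90).

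**Figure D2:**
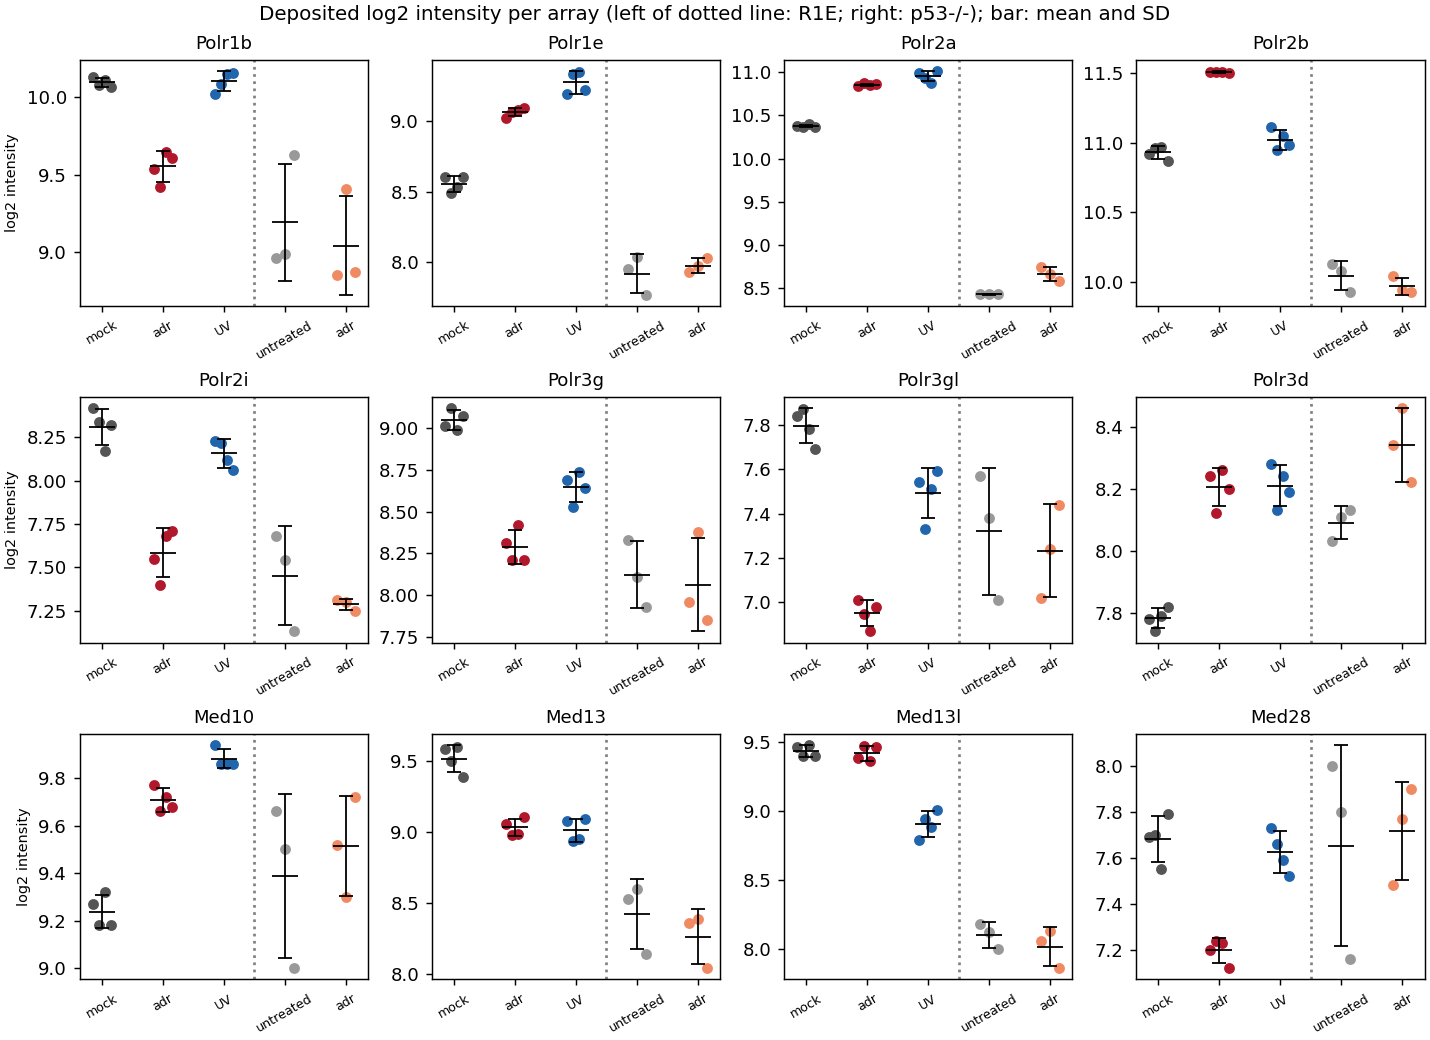
Deposited log2 intensity on every array for 12 members, 1 panel each, with R1E mock, adriamycin and UV to the left of the dotted line and p53-/- untreated and adriamycin to the right; bars are mean and SD (n = 4 and n = 3), and levels on either side of the line are not comparable because the sets were normalised separately. Polr2b stands at 11.50 to 11.51 on the adriamycin arrays and at 10.87 to 11.11 on the mock and UV arrays, and Med13l is low only on the UV arrays among the R1E groups.

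After UV in R1E cells more members rose than fell on the deposited scale. Of the 57, 18 rose and 12 fell, where 22.6% of all genes rose and 21.2% fell. The median member changed by 0.05 and the median gene by 0.03. Among genes above the median level, 34.5% of members rose and 20.0% fell, against 30.9% and 37.5% of all such genes. The split between rises and falls depended on the scaling. Rises made up 60.0% of the calls as deposited, 65.6% with quantile normalization (21 higher, 11 lower) and 44.4% after centring (12 higher, 15 lower), and centring turned the members' median to -0.03. The UV and adriamycin comparisons share their mock arrays.

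Polr1e rose most after UV, to 9.19, 9.33, 9.35 and 9.22 from the mock values above, all higher than any mock or adriamycin array. The change was 0.72 ± 0.05 (1.65-fold, adjusted p = 7.71e-09). Med10 reached 9.94, 9.86, 9.86 and 9.86 (0.64 ± 0.05, adjusted p = 2.20e-08). Polr2a reached 10.99, 10.93, 10.88 and 11.01 (0.57 ± 0.04, adjusted p = 2.25e-08). For these 3 genes, picked as the largest rises, the UV arrays lay above all mock arrays, which adds no support of its own. Of the other Pol I members, Polr1b and Polr1c each gave 0.01 after UV, with arrays that overlapped the mock range. Polr1a was called lower, at -0.12 ± 0.05 (adjusted p = 0.0440), but not in 9 of the 12 fits that left out 1 array. The Pol I subunits under older symbols gave -0.21 (Twistnb, adjusted p = 0.0101), 0.00 (Cd3eap, 0.972) and -0.25 (Znrd1, 0.0315).

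Of 13 Pol II members 5 were called higher after UV and 0 lower, where 22.6% and 21.2% of all genes were. Polr2i, at -0.16, was called lower after centring (adjusted p = 0.0136) and without mock replicate 3 (adjusted p = 0.0420). Polr2d, a subunit of the stalk that binds emerging RNA, read 8.87, 8.33, 8.57 and 8.31 against 8.00 to 8.15 in mock arrays (0.46 ± 0.11, adjusted p = 0.00199). Its stalk partner Polr2g rose by 0.35 ± 0.06. Of the shared subunits, Polr2l reached 10.41 to 10.71 from 10.07 to 10.21 (0.43 ± 0.08, adjusted p = 0.000195), and its other probe gave 0.46. Polr2k, dimmer than the median gene, was called at 0.24 but not with centring or quantile normalization (adjusted p = 0.118 and 0.216). Polr2b, which rose after adriamycin, gave 0.09 after UV (95% interval -0.01 to 0.19), with UV arrays at 10.95 to 11.11 that overlapped the mock range. It was called higher with quantile normalization (0.18, adjusted p = 0.00286).

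In Pol III, Polr3b fell most. This catalytic subunit read 8.83, 9.02, 8.92 and 8.83 after UV against 9.46, 9.44, 9.49 and 9.33 in mock arrays, without overlap (-0.53 ± 0.06, adjusted p = 1.25e-06). Its partner Polr3a gave -0.03 (95% interval -0.15 to 0.09). Polr3g read 8.69, 8.53, 8.74 and 8.64 (-0.40 ± 0.06, adjusted p = 4.71e-05) and Polr3gl 7.54, 7.33, 7.51 and 7.59 (-0.30 ± 0.06, adjusted p = 0.000728). Both lay between the mock and the adriamycin ranges. Polr3d rose by 0.42 ± 0.05, and Polr3c was called at 0.14, though not after centring (adjusted p = 0.317).

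In Mediator, all 4 members of the kinase module fell after UV: Med13l changed by -0.54 ± 0.05, Med13 by -0.51 ± 0.06, Med12l by -0.38 ± 0.07 and Med12 by -0.19 ± 0.05 (adjusted p = 4.86e-07, 2.59e-06, 0.000338 and 0.00731). Med13l read 9.46, 9.40, 9.48 and 9.40 in mock arrays and 8.79, 8.94, 8.88 and 9.01 after UV, with adriamycin arrays at 9.36 to 9.47. Med12l is a dim gene on these arrays, at 5.79 to 5.84 in mock cells. The scaffold Med14 fell by 0.34 (SE 0.06, adjusted p = 0.000144). Med14, Med13, Med13l and Med12l are long genes, at 87.2, 90.6, 205 and 313 kb. Most genes of such span above the median level fell after UV, 59.1% of those from 40 to 100 kb and 79.7% of those above 100 kb.

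In the middle module 5 of 9 members rose (55.6%) and 0 fell, led by Med10. The others were Med9 (0.35), Med7 (0.30), Med21 (0.25) and Med4 (0.20). These 5 are short genes, from 5.79 kb (Med7) to 15.1 kb (Med9). After UV 22.6% of all genes rose and 21.2% fell. Above the median level 45.3% of genes under 10 kb and 35.2% of those from 10 to 40 kb rose. Med21 and Med4 lost their calls after centring, and the other probe of Med4 gave -0.07. In the head Med22 rose most, reaching 7.17, 7.17, 7.11 and 7.13 from 6.81, 6.64, 6.68 and 6.65 (0.45 ± 0.06, adjusted p = 5.24e-06). Med11 (0.34) and Med17 (0.15) also rose, Med17 not without UV replicate 3 (adjusted p = 0.0522) or after centring (adjusted p = 0.202). Med6 was called at -0.22 but lost its call in 5 of 12 fits that left out 1 array (adjusted p up to 0.0984). The tail held rises in Med25 (0.36 ± 0.05, adjusted p = 4.43e-05) and Med24 (0.15) and falls in Med27 and Med23 (-0.17). Med27 read 7.24, 7.75, 7.43 and 7.51 after UV against 7.87 to 8.06 in mock arrays (-0.47 ± 0.08, adjusted p = 0.000177). Med24 lost its call in 6 fits with 1 array left out.

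Adriamycin was set directly against UV in R1E cells, a difference that does not use the mock arrays, although they enter the fit's spread. Of the 57 members 6 were higher after adriamycin and 31 lower, where 19.8% of all genes were higher and 22.2% lower. The median member differed by -0.20 and the median gene by -0.04. Among brighter genes 12.7% of members were higher and 61.8% lower, against 31.6% and 35.0% of all such genes. By complex the counts higher and lower were 1 and 3 of 5 for Pol I, 1 and 9 of 13 for Pol II, 1 and 6 of 9 for Pol III and 3 and 13 of 30 for Mediator.

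**Figure D3:**
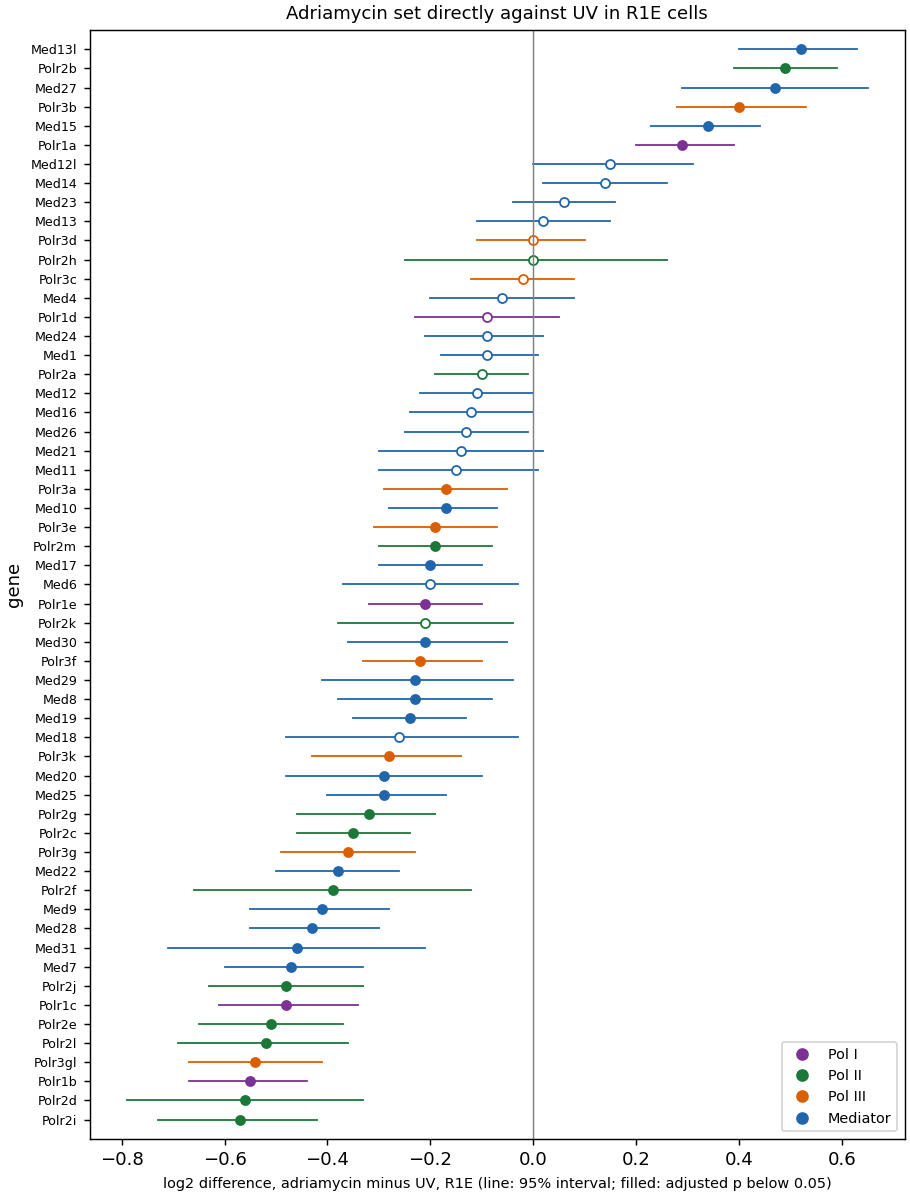
Log2 difference between adriamycin and UV in R1E cells for each of the 57 members, with 95% intervals, coloured by complex; filled points have an adjusted p below 0.05. The 6 filled points on the right are Med13l, Polr2b, Med27, Polr3b, Med15 and Polr1a, and 31 filled points lie on the left.

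The 6 members higher after adriamycin than after UV were Med13l (0.52 ± 0.05), Polr2b (0.49 ± 0.05), Med27 (0.47 ± 0.08), Polr3b (0.40 ± 0.06), Med15 (0.34 ± 0.05) and Polr1a (0.29 ± 0.05), with adjusted p from 5.19e-07 to 0.000217. Among them are the catalytic subunits Polr1a, Polr2b and Polr3b, but the catalytic subunits Polr1b (-0.55 ± 0.06) and Polr3a were called lower in this contrast. Polr3a lost its call in some fits with 1 array left out (-0.14, limma adjusted p = 0.0721 without adriamycin replicate 1). For all 6 members called higher the adriamycin arrays lay above the UV arrays. They were picked by their calls in this contrast, so this adds no support, and the share of all genes that separate so was not computed. In Pol II the pair of large subunits differed in this contrast: Polr2b was higher after adriamycin, and Polr2a gave -0.10 (95% interval -0.19 to -0.01, adjusted p = 0.0856).

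The 8 largest differences toward UV were in Polr2i (-0.57 ± 0.07), Polr2d (-0.56 ± 0.11), Polr1b (-0.55 ± 0.06), Polr3gl (-0.54 ± 0.06), Polr2l (-0.52 ± 0.08), Polr2e (-0.51 ± 0.07), Polr1c (-0.48 ± 0.06) and Polr2j (-0.48 ± 0.07), with adjusted p from 6.11e-07 to 0.000444. Polr1b, Polr1c and Polr2e had UV arrays that overlapped the mock arrays (10.02 to 10.16, 9.67 to 9.88 and 10.20 to 10.54) and adriamycin arrays below both. Polr2d and Polr2l were the opposite case, with adriamycin arrays at 7.74 to 8.14 and 9.93 to 10.22 that overlapped mock. For Polr3d the direct contrast gave 0.00 (95% interval -0.11 to 0.10) and for Med13 0.02 (-0.11 to 0.15). In the kinase module 1 member of 4 was called higher and 0 lower, though Med12, at -0.11, was called lower after centring (-0.16, adjusted p = 0.0248).

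The change after UV varied with the span of the gene on the genome, taken from RefSeq. Of 24 members under 10 kb, 10 rose and 0 fell after UV, where 24.5% of all genes of that span rose and 6.59% fell. Among genes of that span above the median level 45.3% rose and 13.8% fell. Those shares come from the separate fit to the brighter genes. The members' share of rises, 41.7%, uses the fit over all genes, so these shares are not directly comparable. Of 22 members from 10 to 40 kb, 8 rose and 4 fell (36.4% and 18.2%), against 28.1% and 18.6% of all such genes and 35.2% and 29.6% of the brighter ones. Of 7 from 40 to 100 kb, 0 rose and 4 fell (57.1%), against 16.4% and 39.6% of all such genes and 17.4% and 59.1% of the brighter ones. All 4 members above 100 kb fell: Polr3b (105 kb), Med27 (178 kb), Med13l (205 kb) and Med12l. Of all genes above 100 kb, 8.76% rose and 48.2% fell, and of the brighter ones 79.7% fell. Across the 57 members Spearman's rho between span and UV change was -0.55, and -0.44 for the 53 members under 100 kb. For adriamycin it was 0.08. These coefficients describe genes measured on the same arrays, and the pattern was known from earlier results of these data, so the members are no separate support for it.

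**Figure D4:**
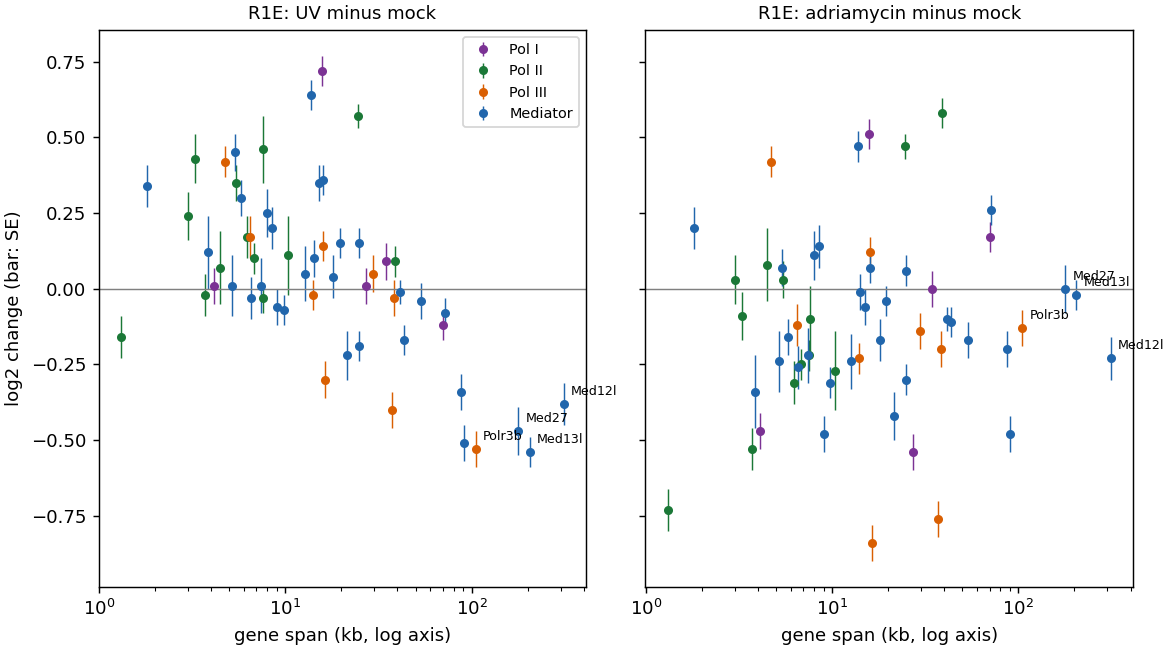
Log2 change after UV (left) and after adriamycin (right) in R1E cells against gene span in kb on a log axis, 1 point per member with its SE, coloured by complex. After UV the 4 labelled members above 100 kb lie at -0.54 to -0.38; after adriamycin the same 4 lie at -0.23 to 0.00.

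Span also ordered the direct contrast. Of the 24 members under 10 kb, 0 were higher after adriamycin than after UV and 17 lower, where 3.87% and 28.1% of all genes of that span were. The members' 70.8% lower stood beside 57.3% of the brighter genes of that span, of which 7.13% were higher. Of the 4 above 100 kb, 3 were higher and 0 lower, against 54.5% and 4.58% of all such genes and 82.6% and 4.96% of the brighter ones. The 6 members higher after adriamycin span from 38.8 kb (Polr2b) to 205 kb (Med13l). Polr3gl and Polr3g, which were called lower after both treatments, span 16.3 and 37.2 kb.

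In p53-/- cells no member was called after adriamycin by limma, where 0.0953% of all genes were called. At an unadjusted p below 0.05 there were 4 members of 57, or 7.02%, against 11.6% of all genes. With the trend and robust options limma also called 0 members, with 4 at an unadjusted p below 0.05. Those 4 were Med18 (0.37), Med1 (-0.38), Polr1d (-0.47) and Med29 (-0.47), with a lowest adjusted p of 0.337. Without untreated replicate 3 they gave 0.22, -0.43, -0.58 and -0.59, and none was called (adjusted p from 0.0908 to 0.345). The median 95% half-width of a member's change was 0.33 log2 units here and 0.13 in R1E cells. Changes of the size seen in R1E for most members could not be resolved at this precision. The median member changed by 0.03 and the median gene by 0.06. Without untreated replicate 3 the members' median was -0.12 against 0.07 over all genes, still with 0 members called, while 442 of the 19935 genes were.

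The values in p53-/- cells follow for both large Pol II subunits and for the 6 other members with the largest R1E changes, each with the change without untreated replicate 3. Polr2b read 10.13, 10.08 and 9.93 untreated and 10.04, 9.94 and 9.93 after adriamycin, with overlap (-0.08, 95% interval -0.34 to 0.19; -0.14 without that array). Polr2a read 8.43, 8.43 and 8.44 untreated and 8.75, 8.67 and 8.59 after adriamycin. All 3 treated arrays lay above the untreated ones, but the change of 0.24 was not called (interval -0.02 to 0.50, adjusted p = 0.468) and was also 0.24 without that array.

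Polr2e read 8.46, 8.28 and 8.32 untreated and 8.01, 8.19 and 8.19 treated, with all treated arrays below the untreated ones, the direction seen in R1E. The change of -0.22 was not called (interval -0.50 to 0.05, adjusted p = 0.516) and was -0.24 without untreated replicate 3. For the other 5 the groups overlapped. Polr2i read 7.68, 7.54 and 7.13 untreated and 7.31, 7.30 and 7.25 treated (-0.16, interval -0.49 to 0.17), and -0.32 without that array. Polr3g read 8.33, 8.11 and 7.93 untreated and 7.96, 8.38 and 7.85 treated (-0.06, interval -0.42 to 0.29), and -0.16 without it. Polr3gl read 7.57, 7.38 and 7.01 untreated and 7.02, 7.24 and 7.44 treated (-0.09, interval -0.45 to 0.27), and -0.24 without it. For Polr2i and this Pol III pair, untreated replicate 3 was the lowest untreated array. The changes of both Pol I genes lay near 0 without it: Polr1b went from -0.15 (interval -0.59 to 0.29) to 0.07, and Polr1e from 0.06 (interval -0.22 to 0.33) to -0.02.

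The difference between the adriamycin effects in R1E and p53-/- cells was tested gene by gene, with each set's own spread. Genotype, cell line, array set and processing tool differ together between the sets and cannot be told apart in it. The effect was higher in R1E for 2 members and lower for 6 (3.51% and 10.5%), where 10.4% and 11.4% of all genes were called. Among genes above the median level in both sets, 2 and 7 of 55 members were called, against 13.0% and 19.2% of those genes. Polr2b differed by 0.66 ± 0.13 (adjusted p = 0.00169) and Polr1e by 0.45 ± 0.14 (0.0240). On the other side were Polr3gl at -0.75 ± 0.18 (0.00550), Polr3g at -0.70 ± 0.17 (0.00877), Med18 at -0.61 ± 0.19 (0.0203), Polr2i at -0.56 ± 0.17 (0.0214), Med19 at -0.52 ± 0.14 (0.0127) and Med26 at -0.41 ± 0.14 (0.0444). The Pol I subunits under older symbols also differed, Twistnb by -0.69, Cd3eap by -0.64 and Znrd1 by -0.69 (adjusted p = 0.00253, 0.0321 and 0.00904). Polr2a differed by 0.23, with an interval of -0.04 to 0.50.

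**Figure D5:**
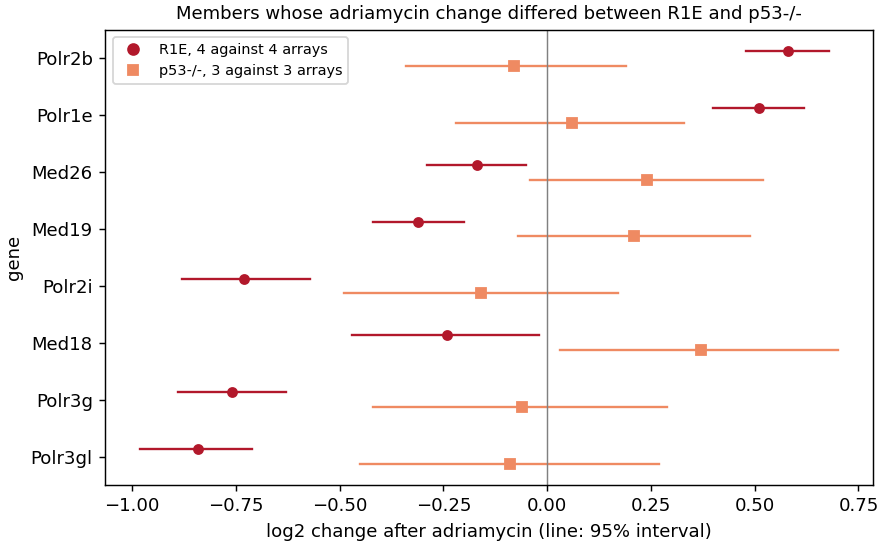
Log2 change after adriamycin in R1E (circles, 4 against 4 arrays) and in p53-/- cells (squares, 3 against 3 arrays) with 95% intervals, for the 8 members whose change differed between the sets at an adjusted p below 0.05. The R1E points run from -0.84 to 0.58 and the p53-/- points from -0.16 to 0.37.

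The differences for Polr2b, Polr3g and Polr3gl were called in every alternative run. Those for Med18, Med19, Med26, Polr1e and Polr2i each lost the call without at least 1 p53-/- array. Med26 also lost it with the replicate block (adjusted p = 0.0553), quantile normalization (0.0561) and the trend and robust options (0.0681). It was lost as well without some single R1E arrays (adjusted p from 0.0538 to 0.0648). The counts moved with single p53-/- arrays. They were 5 higher and 8 lower without untreated replicate 3, 1 and 8 without untreated replicate 1, 1 and 6 without untreated replicate 2, 1 and 2 without adriamycin replicate 1 and 1 and 4 without adriamycin replicate 2. Without adriamycin replicate 3 they were 3 and 4. Without untreated replicate 3 all 8 genes above stayed called, with Polr2b at 0.72, Polr3g at -0.60 and Polr3gl at -0.60, and Med10, Med15, Med20, Polr1b and Polr1d were added. Med18 rested on unlike R1E arrays as well: after adriamycin these read 7.35, 7.43, 7.89 and 7.84, against 7.73 to 7.99 in mock arrays.

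Sequences upstream of 5 members are shown because these genes carried the contrasts above: Polr3g and Polr3gl fell together, Polr2a and Polr2b both rose after adriamycin and of these Polr2a was called after UV, and Polr2i fell most in Pol II. Each is the 250 bases before the annotated start, from RefSeq on GRCm38.p6, written 5′ to 3′ on the gene's strand. Capitals mark matches, on either strand, to TATAAA (the TATA box), CCAAT (the core of an NF-Y site), GGGCGG (an Sp1-type GC box), CACGTG (an E-box), CCGGAAG (an Ets-type site) or the p53 half-site.
Polr3g (chr13:81711014-81711263, minus strand): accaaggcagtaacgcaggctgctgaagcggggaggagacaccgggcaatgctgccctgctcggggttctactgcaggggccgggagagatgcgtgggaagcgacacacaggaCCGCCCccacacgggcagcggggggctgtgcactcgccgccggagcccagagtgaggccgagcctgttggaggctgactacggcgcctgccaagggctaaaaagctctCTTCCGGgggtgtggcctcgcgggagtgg
Polr3gl (chr3:96594182-96594431, minus strand): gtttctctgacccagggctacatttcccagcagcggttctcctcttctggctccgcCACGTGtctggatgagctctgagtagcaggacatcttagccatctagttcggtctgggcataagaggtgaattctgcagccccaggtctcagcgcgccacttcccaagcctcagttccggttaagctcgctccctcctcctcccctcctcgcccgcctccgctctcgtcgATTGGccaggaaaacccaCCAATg
Polr2a (chr11:69758634-69758883, minus strand): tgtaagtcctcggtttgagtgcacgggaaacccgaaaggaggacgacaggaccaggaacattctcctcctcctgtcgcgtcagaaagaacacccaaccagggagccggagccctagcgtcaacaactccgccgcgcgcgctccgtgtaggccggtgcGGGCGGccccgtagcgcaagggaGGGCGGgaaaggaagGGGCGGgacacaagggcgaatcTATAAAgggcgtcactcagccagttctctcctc
Polr2b (chr5:77310234-77310483, plus strand): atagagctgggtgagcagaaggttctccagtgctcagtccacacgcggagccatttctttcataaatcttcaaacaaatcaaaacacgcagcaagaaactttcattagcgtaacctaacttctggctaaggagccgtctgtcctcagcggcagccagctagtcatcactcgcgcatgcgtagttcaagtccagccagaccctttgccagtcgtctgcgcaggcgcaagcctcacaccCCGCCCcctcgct
Polr2i (chr7:30231824-30232073, plus strand): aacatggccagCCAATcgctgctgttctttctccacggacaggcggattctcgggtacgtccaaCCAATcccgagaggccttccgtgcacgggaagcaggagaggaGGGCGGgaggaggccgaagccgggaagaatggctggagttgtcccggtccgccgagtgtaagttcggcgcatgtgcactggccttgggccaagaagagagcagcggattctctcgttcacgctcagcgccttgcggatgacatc

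Polr3g and Polr3gl held no motif in common, with a GC box and an Ets-type site in Polr3g and CCAAT and an E-box in Polr3gl. Polr2a and Polr2b both held GC boxes, and of these 5 only Polr2a held TATAAA. Promoter windows, from 250 bases before to 50 after a start, were found for 48 of the 57 members, as 54 windows. GGGCGG was in 61.1% of them against 35.7% of all 32851 windows, and CCGGAAG in 29.6% against 8.86%. TATAAA was in 9.26% against 13.6%, CCAAT in 33.3% against 37.4%, CACGTG in 13.0% against 7.15% and the p53 half-site in 3.70% against 8.36%. Both strands were searched, motifs could overlap, and base composition was not matched. A match describes letters and not binding.

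Other genes of the transcription machinery were read from fixed lists beside the members. The counts below stand against 22.1% of all genes higher and 25.6% lower after adriamycin and 22.6% and 21.2% after UV, and, above the median level, against 30.2% and 43.1% and 30.9% and 37.5%. Of 33 general initiation factors of Pol II, 5 rose and 13 fell after adriamycin, and 6 rose and 14 fell after UV. Taf6, a TFIID subunit, rose by 0.55 and 0.60, Taf9b fell by 0.99 after adriamycin, and Mnat1, the assembly factor of the TFIIH kinase, fell by 0.97 after UV. Of 26 pausing and elongation factors 4 rose and 12 fell after adriamycin, and 9 rose and 10 fell after UV. Ell3, an ELL-family elongation factor, rose by 1.44 and 1.50, and Aff1, a scaffold of the super elongation complex, fell by 0.84 and 0.62.

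Of 8 Pol I factors 2 rose and 1 fell after adriamycin, and 4 rose and 2 fell after UV. Ttf1, which terminates ribosomal RNA transcription, rose by 0.71 and 0.58, and Ubtf, which organises the active ribosomal RNA genes, fell by 0.66 and 0.25. Of 15 Pol III and snRNA gene factors 6 rose and 5 fell after adriamycin, and 8 and 4 after UV. The largest rise after adriamycin was in Gtf3c1, the largest subunit of TFIIIC. It went from 9.17 to 9.27 in mock arrays to 10.52 to 10.58 after adriamycin and 9.76 to 9.83 after UV (log2 changes 1.32 ± 0.04 and 0.57 ± 0.04). Snapc4, of the complex that activates snRNA genes, rose most after UV (0.65), and Snapc3 of the same complex fell by 0.40 in both.

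Of the 3 partners of Med12 and Med13 in the kinase module, 2 were called lower after each treatment. Cdk8 changed by -0.32 ± 0.06 after adriamycin and -0.52 ± 0.06 after UV (adjusted p = 0.000222 and 1.92e-06), and Cdk19 by -0.20 ± 0.06 and -0.52 ± 0.06 (0.00968 and 1.38e-06). Cyclin C (Ccnc) was not called, at -0.14 and -0.20 (adjusted p = 0.169 and 0.0507). Of 14 Integrator subunits, the complex that cleaves nascent snRNA, 1 rose and 9 fell after adriamycin and 2 and 8 after UV, with Ints1 at 0.44 in both and Ints6 at -1.05 and -0.54. No gene of these lists was called in p53-/- cells, where precision was lower. Changes there, with all 6 arrays, were 0.15 for Gtf3c1, -0.18 for Ttf1, 0.64 for Ell3, -0.12 for Ints6 and -0.32 for Aff1. Ell3 read 5.45 to 5.67 untreated and 6.13 to 6.18 treated, without overlap (adjusted p = 0.115). Cdk8, Cdk19 and Ccnc changed by -0.48, 0.03 and -0.24. The difference of adriamycin effects was called for Gtf3c1 (1.17, adjusted p = 2.88e-05), Ttf1 (0.89, 0.00441), Ell3 (0.81, 0.000302), Ints6 (-0.93, 0.000124) and Aff1 (-0.52, 0.0358) among the list genes named here.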

How the data were processed

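The authors deposited 1 log2 intensity per probe for each of 18 whole-transcript arrays. Tools named in the submitters' processing notes are Affymetrix Expression Console 1.1 for R1E and Partek 6.4 with RMA for p53-/-. No source used here names the algorithm that Expression Console ran. The sets were normalised separately, so levels were tested only within a set.

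Of 28853 probes, 28815 had values on all 18 arrays, and 21780 of these had 1 gene symbol. Probes with several symbols (1605, among them 2 that list a member) or none (5430) were not used. Per gene the probe with the highest mean was taken, which left 19935 genes. Groups came from the labels. Changes were fitted with limma 3.58.1 in R 4.3.3 (lmFit, eBayes) in 1 fit over the 12 R1E arrays and 1 over the 6 p53-/- arrays, without further normalization or a filter on dim probes. The difference of effects used the root of the summed squared moderated standard errors, with Satterthwaite degrees of freedom. The threshold for a call was 0.05 on the p adjusted by Benjamini and Hochberg's method over all 19935 genes. Shares among genes above the median level came from separate fits to those genes only. There p was adjusted over 9967 genes, or over 9067 for the difference of effects. The scripts were tested on simulated data.

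The members, the lists and the tests were chosen with earlier results of these data known. Named by rule were, per comparison, the 8 largest rises and falls among called members, the catalytic subunits, the paralogue pairs, Med1 and Med14, the kinase partners and the largest called rise and fall of each list. Other members are named to complete the counts of a complex. Alternatives covered quantile normalization, centring, a filter on dim genes, the mean of all probes, the eBayes prior, a replicate block, the arrays in the fit, a shared spread and each array left out. The brighter-gene shares and the span classes were chosen after seeing the data. A planned comparison of paralogue protein sequences was not made.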

Additional observations from a re-analysis of the deposited data

Results flagged for a closer look

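A single array stood apart from the other 3 of its group in 5 of the 171 sets of 4 R1E arrays examined (57 members, 3 groups), where chance gives about 1 in 20. All 5 were UV arrays. Med10 read 9.94 on replicate 1 and 9.86 on each of the others. Med21 read 8.47 on replicate 1 against 8.16 to 8.19, and Med24 read 9.54 on replicate 1 against 9.72 to 9.75. Med17 read 9.26 on replicate 3 against 9.18, and Polr3a 8.76 on replicate 3 against 8.89 to 8.92.

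The adriamycin effect differed between R1E and p53-/- cells, by the test of the difference, for 8 members. The differences (R1E minus p53-/-) were 0.66 for Polr2b, 0.45 for Polr1e, -0.41 for Med26, -0.52 for Med19, -0.56 for Polr2i, -0.61 for Med18, -0.70 for Polr3g and -0.75 for Polr3gl. The sets differ in genotype, line and processing together, and these cannot be told apart.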

How the results depend on the processing

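Centring each array on its median raised the members called lower after adriamycin from 23 to 37, by construction a shift of every change by the same amount. For the difference of effects, 1 fit over 18 arrays with a shared spread gave 4 higher and 11 lower in place of 2 and 6. With each array left out in turn, the members called higher and lower ranged from 7 to 9 and 19 to 26 for adriamycin, 13 to 19 and 10 to 12 for UV, 6 to 8 and 27 to 32 for adriamycin against UV, and 1 to 5 and 2 to 8 for the difference of effects; in p53-/- cells they were 0 throughout. Where leaving out an array left 2 in a group, the spread was pooled over the fit. The other counts stayed within 1.5 times in the alternatives run. Of the called members, 23 of 32 were called under every alternative for adriamycin, 22 of 30 for UV, 30 of 37 for adriamycin against UV and 3 of 8 for the difference.

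With the replicate number as a block, members called higher and lower were 8 and 24 for adriamycin, 19 and 11 for UV, 6 and 31 for adriamycin against UV, 0 and 0 in p53-/- cells and 2 and 6 for the difference. Arrays with the same number had deviations that correlated from -0.14 to 0.19, not all above 0.1, so the numbers were not taken as pairs. Mock replicates 1 and 4 correlated more with an adriamycin array of another number, at up to 0.39 and 0.37. A block by replicate number does not account for this. No leave-one-out fit or other alternative reversed the sign of a called change, with changes rounded as printed here. A change rounded to 0.00, as for Polr3c under adriamycin after centring, could not show a reversal. The number of arrays and, in p53-/- cells, a median standard error of 0.14 against 0.063 in R1E, limit what could be called.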
